A study of Homo sapiens with 4 samples.

Results

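Semaphorins, ephrins and their receptors are the cell-surface and secreted cues that steer growing axons and that also act between epithelial and tumour cells. The genes described here are those of the count table whose symbols begin with SEMA, PLXN, EPH or EFN followed by their class letter or number, together with NRP1 and NRP2. The name rule matched 56 of the 25369 genes in the table, of which 53 are the guidance genes themselves and 3 are antisense RNAs named after them (SEMA3B-AS1, EPHA1-AS1 and EPHA5-AS1). Of the 56, 46 had at least 10 counts in at least 2 libraries, and the same 46 passed the low-count filter and were tested. The rule reads the symbols only and no measured value.

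The 4 libraries came from H226, an established line of human lung squamous cell carcinoma, in which a short hairpin RNA is switched on by doxycycline. In 2 libraries the hairpin had no target (shControl) and in the other 2 it was directed at p63 (shp63). All 4 cultures, the controls included, had been kept in 1 µg/mL doxycycline for 6 days, and no culture without the drug was analysed here. The submitters call the libraries of a group independent biological replicates, and the labels name 1 hairpin construct per group, so that an effect of the hairpin sequence and an effect of losing p63 cannot be told apart.

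Semaphorins signal through plexins, whose cytoplasmic part acts on small GTPases, and most of the secreted class 3 semaphorins bind through a neuropilin co-receptor. Ephrins are tethered to the cell surface, the A ligands by a lipid anchor and the B ligands by a transmembrane segment, and their Eph receptors are tyrosine kinases, so that contact between neighbouring cells sends signals into both. In epithelia both systems take part in cell sorting, adhesion and migration, and p63 is the master transcription factor of basal and squamous epithelium.

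Several of the genes that differed most lie side by side, and the DNA before their starts is shown here because these neighbours moved in the same direction. EFNA4 (chr1:155036213-155042029), EFNA3 (chr1:155051313-155060014) and EFNA1 (chr1:155100352-155107375) lie on the plus strand of chromosome 1 in GRCh37, with 9.3 kb between the first pair and 40.3 kb between the second. SEMA3B (chr3:50304990-50314977, plus strand) and SEMA3B-AS1 (chr3:50304063-50304996, minus strand) start head to head on chromosome 3 and overlap by 7 bases, and SEMA3F (chr3:50192478-50226508) ends 78.5 kb before SEMA3B. The sequences are RefSeq promoter entries (table of build GRCh38.p14) that were each found once, letter for letter, in GRCh37. They are written 5′ to 3′ on the plus strand with each CpG in capitals. The first 3 are the 250 bases before the RefSeq start.
EFNA4, chr1:155035966-155036215: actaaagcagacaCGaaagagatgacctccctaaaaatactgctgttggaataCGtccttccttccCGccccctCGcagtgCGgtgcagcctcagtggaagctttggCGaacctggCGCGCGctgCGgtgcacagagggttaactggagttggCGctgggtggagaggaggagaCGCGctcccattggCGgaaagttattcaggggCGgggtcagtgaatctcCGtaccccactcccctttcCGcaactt
EFNA3, chr1:155051063-155051312: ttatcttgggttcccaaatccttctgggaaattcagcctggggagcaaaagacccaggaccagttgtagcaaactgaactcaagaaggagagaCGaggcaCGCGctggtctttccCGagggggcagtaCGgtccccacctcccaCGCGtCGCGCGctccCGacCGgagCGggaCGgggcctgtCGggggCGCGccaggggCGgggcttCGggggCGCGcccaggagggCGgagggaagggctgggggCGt
EFNA1, chr1:155100102-155100351: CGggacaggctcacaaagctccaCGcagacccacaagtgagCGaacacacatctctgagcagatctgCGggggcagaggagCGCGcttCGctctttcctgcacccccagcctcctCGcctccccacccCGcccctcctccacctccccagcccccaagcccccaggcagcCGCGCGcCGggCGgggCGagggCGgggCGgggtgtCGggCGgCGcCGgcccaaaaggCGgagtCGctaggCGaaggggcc
SEMA3B, chr3:50304834-50304989: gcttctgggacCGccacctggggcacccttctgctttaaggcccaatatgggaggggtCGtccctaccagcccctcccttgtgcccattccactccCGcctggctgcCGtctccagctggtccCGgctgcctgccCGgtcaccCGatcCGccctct
The EFNA4 stretch held 17 CpG at 58.4% GC, the EFNA3 stretch 23 at 67.6% and the EFNA1 stretch 24 at 73.2%. The SEMA3B stretch is the last 156 bases before the annotated start of SEMA3B, with 8 CpG at 67.9% GC. In GENCODE, the annotation that gives the overlap by 7 bases, all of it is exon of the transcript SEMA3B-AS1-201 on the other strand. Of the transcript SEMA3B-AS1-202 only 68 bases of exon lie in it. RefSeq lists several starts for SEMA3B. The one used here and the RefSeq start of SEMA3B-AS1 are 281 bases apart, without the overlap seen in GENCODE. The 250-base windows before these 2 starts share 220 bases. RefSeq gave 77 promoters for 50 of the 56 genes. Within the 250 bases before the start, the p53-family half-site, searched on both strands, was found in 2 of the 77 (SEMA3F and SEMA5B, 2.6%) against 5.57% of all 35116 promoters, and the AP-1 letters TGANTCA, also on both strands, in 1 (PLXNC1, 1.3%) against 6.57%. None of the 4 stretches printed here holds either motif.

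The libraries held 51926832 to 53924761 counted reads, and levels below are in CPM, the reads of a gene divided by the TMM-scaled size of its library (factors of 0.966 to 1.03). TP63 itself stood at 136 and 137 CPM in the shControl libraries and at 30.7 and 30.5 CPM in the shp63 libraries, 4.46-fold lower (log2 fold change -2.16, SE 0.041, edgeR quasi-likelihood test with Benjamini-Hochberg adjustment, adjusted p = 2.28e-21). The 10 squamous carcinoma markers summed to 4916 to 5015 CPM in shControl and to 3196 to 3390 CPM in shp63. Most of both sums was KRT17, which fell 1.27-fold from 3898 to 3062 CPM. Of the 10, 9 were tested, of which 8 were lower and KRT6A was higher, and CALML3 and SOX2 were near 0. SOX2, counted as lower, had 14 and 11 reads in shControl and 1 and 3 in shp63. It passed the low-count filter through shControl only. Marker lists of other cell types also moved. The 6 endothelial markers went from 59.9 to 65.0 CPM up to 190 to 191 CPM, nearly all of it CDH5, and PECAM1 also rose, but VWF fell from 4.66 to 1.30 CPM (edgeR adjusted p = 7.2e-11), CLDN5 had no read, KDR at most 1 and TEK at most 6. The 8 leukocyte markers went from 12.97 to 14.43 CPM up to 74.6 to 78.6 CPM through CD14 and CD68. LYZ was also higher, with 1 and 1 reads in shControl and 33 and 21 in shp63. It passed the low-count filter through shp63 only. In contrast ITGAM fell from 0.695 to 0.274 CPM (edgeR adjusted p = 0.000414) and PTPRC had 4 to 8 reads a library. The 5 mesothelial markers went from 334 to 361 CPM up to 630 to 636 CPM, with WT1 and CALB2 near 0. The 7 fibroblast markers went from 97.2 to 102 CPM down to 67.1 to 75.2 CPM, nearly all of it COL1A1, with DCN at 0. The 8 neural markers went from 7.78 to 8.10 CPM down to 3.11 to 3.37 CPM, most of it MAP2, with 4 of them at 0. The part of these shifts in the results below was not tested, and in bulk RNA fewer cells of a kind and less RNA per cell cannot be told apart.

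Most of the guidance genes differed between the groups, and more of them were higher in shp63 than lower. Of the 46 tested, 24 rose, 15 fell and 7 did not pass the test (edgeR, adjusted p under 0.05). That is 84.8% called, where 74.0% of all 14901 tested genes were called. The share that rose was 52.2%, against 36.9% of all tested genes, and the share that fell was 32.6%, against 37.1%. The sizes stood further from the background than the counts did: 21 of the 46 (45.7%), 13 higher and 8 lower, passed a test against a change of 1.5-fold, which 22.7% of all tested genes passed, and the median absolute log2 fold change was 0.66 against 0.36. The median signed log2 fold change was 0.19 against -0.01. In 44 of the 46 (95.7%) the shp63 libraries lay both above or both below the shControl libraries, as held for 86.4% of all tested genes, and the exceptions were SEMA3E and SEMA6C. With 2 libraries a group an exact permutation test over libraries cannot give a p below 0.333, so every p here comes from the model fitted over all genes.

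**Figure D1:**
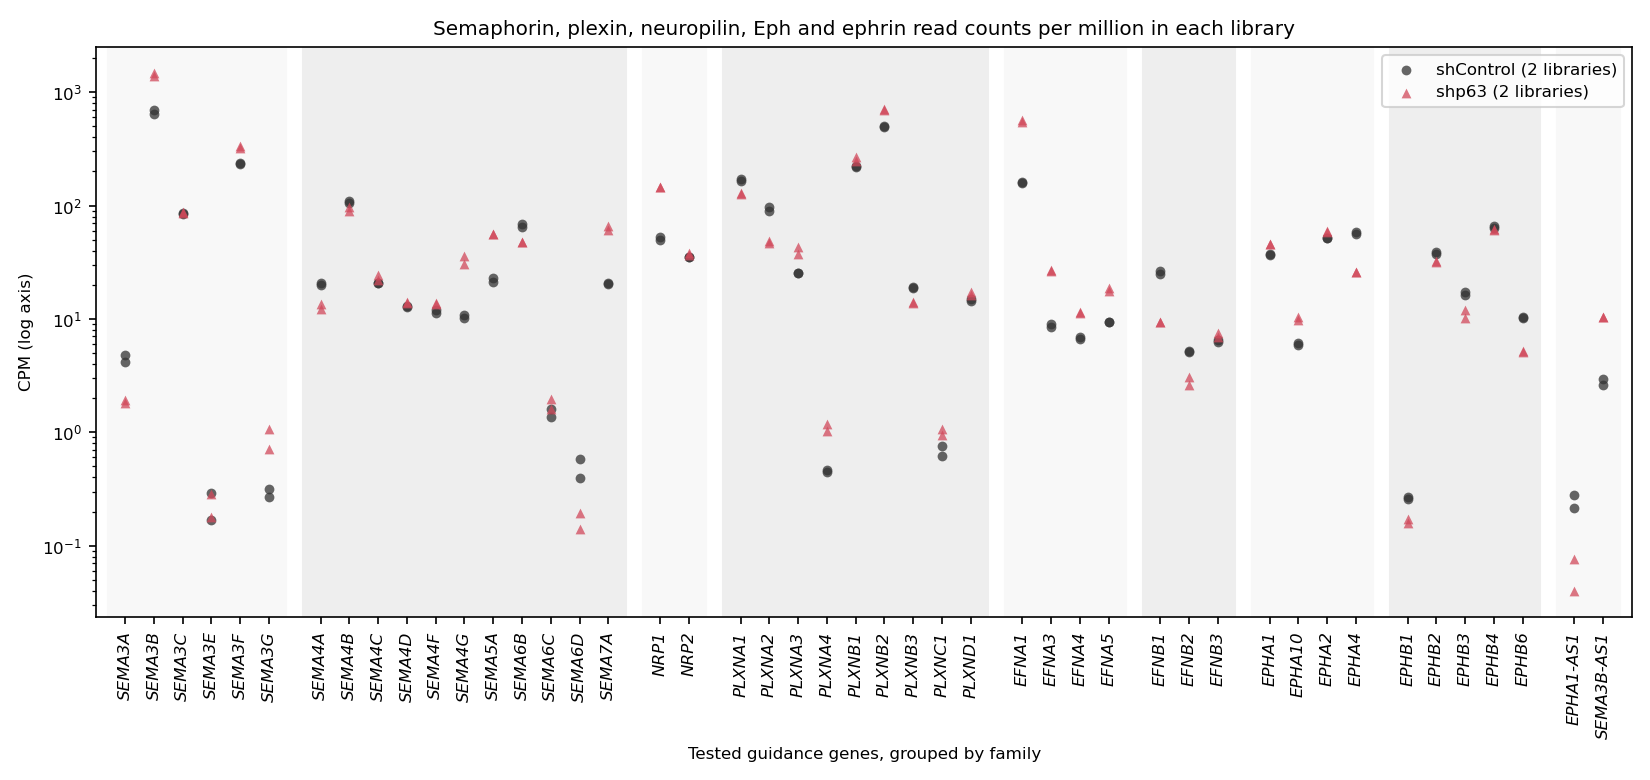
CPM of the 46 tested guidance genes in each of the 4 libraries on a log axis, grouped by family, with 1 point per library. EFNA1 sits at 158 and 162 CPM in shControl and at 573 and 551 CPM in shp63, and SEMA3B is the gene with the highest CPM in every library.

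Per transcript length, the pool of ligands was led by 2 genes in both groups. In reads per kilobase and scaled to depth like CPM (RPKM, from the length of the canonical GENCODE transcript), SEMA3B stood at 209 in shControl and 451 in shp63 and EFNA1 at 103 and 362. The semaphorin next in level was SEMA3F at 65.4 and 90.4 RPKM. Among receptors PLXNB2 led with 77.6 and 109 RPKM, ahead of PLXNB1 with 30.7 and 35.8 RPKM. In shControl the best represented Eph receptors were close together, with EPHB4 at 14.8, EPHA2 at 13.1 and EPHA1 at 11.2 RPKM, and EPHA4 followed at 9.03 RPKM. In shp63 EPHA2 (14.9), EPHB4 (14.2) and EPHA1 (13.8) were again close together and EPHA4 stood at 4.07 RPKM. NRP1 passed NRP2 further than before, with 9.06 against 5.26 RPKM in shControl and 25.8 against 5.64 RPKM in shp63.

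The ephrins split by class. All 4 tested ephrin-A ligands rose and passed the 1.5-fold test, while 2 of the 3 ephrin-B ligands fell and the other did not pass. Of all tested genes 36.9% rose, 37.1% fell and 22.7% passed the 1.5-fold test. EFNA1, EFNA3 and EFNA4 share a stretch of chromosome 1 where 9 of 14 other tested genes within 100 kb also rose. EFNA1, the main ligand of EPHA2 in epithelia, gave 8733 and 8708 reads in shControl and 29802 and 27611 in shp63. In CPM that was 159.7 ± 3.17 (SD, n = 2) and 562 ± 15.7, a log2 fold change of 1.81 (SE 0.033) or 3.52-fold, with an adjusted p of 9.9e-22 by edgeR. Both shp63 libraries lay far above both shControl libraries, and the spread within a group was small beside the gap. Groups without overlap were seen in 86.4% of all tested genes. EFNA3, its neighbour, stood at 8.42 and 9.04 CPM in shControl and 26.8 and 26.3 CPM in shp63, 3.04-fold higher (log2 fold change 1.60, SE 0.061, edgeR adjusted p = 3.48e-16). EFNA4, which lies next to EFNA3, rose less, from 6.89 and 6.60 CPM to 11.4 and 11.5 CPM (1.69-fold, log2 0.76, SE 0.075, edgeR adjusted p = 6.89e-09). The group was not limited to that stretch of chromosome 1: EFNA5, a ligand encoded on chromosome 5 (chr5:106712595-107006638), rose from 9.34 and 9.36 CPM to 18.6 and 17.5 CPM (1.93-fold, log2 0.95, SE 0.065, edgeR adjusted p = 1.25e-11). EFNA2 had 3, 2, 11 and 5 reads and was not tested.

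The B ligands, transmembrane proteins that signal back into the cell that carries them, were lower or differed little. EFNB1 (chrX:68048864-68062003) gave 26.3 and 25.1 CPM in shControl and 9.46 and 9.33 CPM in shp63, 2.74-fold lower (log2 fold change -1.45, SE 0.060, edgeR adjusted p = 1.63e-15). EFNB2, the ligand of EPHB4 in vessels, gave 5.16 and 5.25 CPM against 2.60 and 3.07 CPM, 1.84-fold lower (log2 -0.88, SE 0.115, edgeR adjusted p = 4.89e-07). In both genes the higher shp63 library was below the lower shControl library, and the groups also did not overlap in 86.4% of all tested genes. EFNB3 had 6.20 and 6.51 CPM in shControl and 7.55 and 6.96 CPM in shp63 and just missed the threshold (log2 0.19, 95% interval 0.01 to 0.37, edgeR adjusted p = 0.0505).

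**Figure D2:**
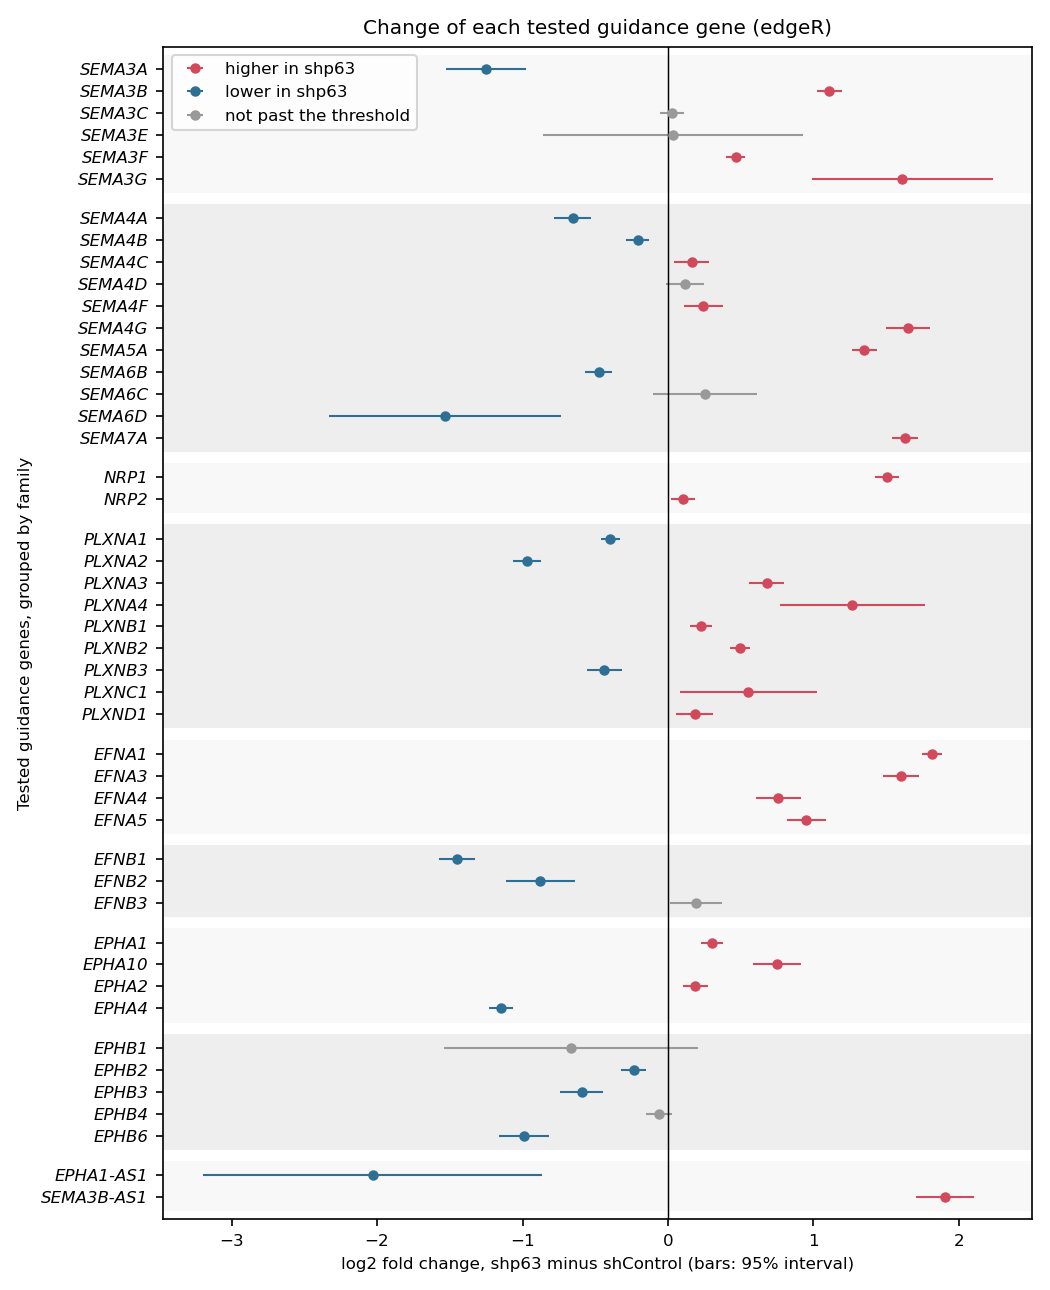
log2 fold change, shp63 minus shControl, of the 46 tested guidance genes with 95% intervals from the edgeR fit (bars), grouped by family and coloured by call. All 4 ephrin-A ligands lie to the right of 0 and all 5 EphB receptors to the left, 2 of the latter without passing the test.

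The Eph receptors had smaller fold changes than the ephrins (median absolute log2 value 0.59 against 0.95). Of 14 receptor genes 9 were tested, 3 rose, 4 fell and 2 did not pass, and the median log2 fold change was -0.24. The shares, 33.3% higher and 44.4% lower, were not far from the 36.9% and 37.1% of all tested genes. EPHA4, which binds ephrins of both classes, changed most: 59.0 and 56.0 CPM in shControl and 26.0 and 25.8 CPM in shp63, 2.22-fold lower (log2 -1.15, SE 0.040, edgeR adjusted p = 6.81e-17). EPHB6, a receptor without kinase activity, was at 10.1 and 10.4 CPM against 5.07 and 5.27 CPM, 1.99-fold lower (log2 -0.99, SE 0.082, edgeR adjusted p = 3.42e-10). EPHA10, the other kinase-inactive member, went the opposite way, from 5.90 and 6.10 CPM to 10.3 and 9.83 CPM (1.68-fold, log2 0.75, SE 0.080, edgeR adjusted p = 2.22e-08). EPHB3 was at 17.4 and 16.2 CPM against 11.9 and 10.3 CPM, 1.51-fold lower (log2 -0.59, SE 0.071, edgeR adjusted p = 1.36e-07), which did not pass the test against 1.5-fold. In each of these 4 receptors the shp63 libraries lay both above or both below the shControl libraries. That does not set them apart, as it held for all 9 tested Eph receptors and for 86.4% of all tested genes.

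Other receptors of similar level changed by smaller amounts than EPHA4. EPHA2, the receptor for which EFNA1 is best known as ligand, went from 51.6 ± 0.146 CPM (SD, n = 2) to 58.8 ± 0.378 CPM (log2 0.19, edgeR adjusted p = 0.00038), beside the 3.52-fold rise of EFNA1. EPHA1 went from 37.0 to 45.7 CPM (log2 0.30, edgeR adjusted p = 1.25e-07) and EPHB2 from 37.8 to 32.1 CPM (log2 -0.24, edgeR adjusted p = 2.15e-05). EPHB4 did not pass, with 64.4 ± 1.70 CPM and 61.7 ± 0.524 CPM, and the interval of its log2 fold change, -0.15 to 0.02, lies inside 1.5-fold in both directions. EPHB1 was at 15, 14, 9 and 8 reads, too few to place it (log2 -0.67, 95% interval -1.54 to 0.21, edgeR adjusted p = 0.158). EPHA3, EPHA5, EPHA6, EPHA7 and EPHA8 had at most 1 read in any library. EPHA1 overlaps ZYX on the other strand by 823 bases and EPHB4 overlaps SLC12A9 by 704 bases, and the strand setting of the counting is not given in the sources used here.

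The class 3 semaphorins, secreted ligands, were led by SEMA3B. SEMA3B, a candidate tumour suppressor of the lung, gave 35461 and 37137 reads in shControl and 76920 and 69706 in shp63, which is 665 ± 36.3 CPM (SD, n = 2) and 1434 ± 62.5 CPM. It was 2.16-fold higher (log2 1.11, SE 0.041, edgeR adjusted p = 8.66e-16). Both shp63 libraries lay far above both shControl libraries, and 86.4% of all tested genes had groups without overlap. Its antisense partner SEMA3B-AS1 had 163 and 140 reads in shControl and 537 and 524 in shp63, from 2.94 and 2.60 CPM to 10.3 and 10.5 CPM (3.74-fold, log2 1.90, SE 0.095, edgeR adjusted p = 5.01e-14). The sense gene had far more reads than the antisense gene in every library, and with the strand setting of the counting not given, sense reads counted on the other strand cannot be told apart from antisense RNA. SEMA3F, a ligand of NRP2, went from 236 to 326 CPM (log2 0.47, edgeR adjusted p = 7.8e-12).

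SEMA3A, the classic repellent that binds NRP1, was the class 3 gene that fell. It stood at 4.80 and 4.15 CPM in shControl and 1.94 and 1.81 CPM in shp63, 2.38-fold lower (log2 -1.25, SE 0.131, edgeR adjusted p = 1.67e-08). SEMA3C was level at 84.7 ± 0.659 and 86.3 ± 1.48 CPM (log2 0.03, 95% interval -0.05 to 0.11, edgeR adjusted p = 0.54). SEMA3G rose at a low level, from 15 and 17 reads to 56 and 36 (log2 1.61, edgeR adjusted p = 5.01e-05). SEMA3E, the ligand of PLXND1, had 16, 9, 15 and 9 reads with overlapping groups, and SEMA3D had at most 3 reads and was not tested.

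Among the membrane-bound semaphorins of classes 4 to 7, 5 rose, 4 fell and 2 of the 11 tested did not pass. That is 45.5% higher and 36.4% lower, beside 36.9% and 37.1% of all tested genes. SEMA7A, a lipid-anchored semaphorin that binds plexin C1 and integrins, gave 20.5 and 20.6 CPM in shControl and 61.3 and 65.8 CPM in shp63, 3.09-fold higher (log2 1.63, SE 0.042, edgeR adjusted p = 4.35e-19). SEMA5A, which carries thrombospondin repeats, went from 21.0 and 22.9 CPM to 55.6 and 56.2 CPM (2.55-fold, log2 1.35, SE 0.042, edgeR adjusted p = 1.05e-17). SEMA4G went from 10.3 and 10.9 CPM to 35.8 and 30.6 CPM (3.14-fold, log2 1.65, SE 0.071, edgeR adjusted p = 3.62e-13). In all 3 genes both shp63 libraries lay far above both shControl libraries, where 86.4% of all tested genes had groups without overlap. The SEMA4G gene shares 16368 bases with MRPL43 on the other strand, which went from 45.3 to 50.2 CPM, so its reads are uncertain without the strand setting. SEMA4A was at 19.8 and 20.7 CPM against 12.3 and 13.4 CPM, 1.57-fold lower (log2 -0.65, SE 0.061, edgeR adjusted p = 2.81e-09).

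The others of classes 4 to 7 changed less or were scarce. SEMA6B, a transmembrane ligand of class A plexins, fell from 66.7 to 47.9 CPM (log2 -0.48, edgeR adjusted p = 1.99e-09), and SEMA4B from 108 to 93.1 CPM (log2 -0.21, edgeR adjusted p = 6.11e-05). SEMA4F rose from 11.6 to 13.7 CPM (log2 0.24, edgeR adjusted p = 0.002) and SEMA4C from 20.8 to 23.2 CPM (log2 0.16, edgeR adjusted p = 0.0143). The SEMA4C call was lost with DESeq2 (adjusted p = 0.105), with library totals (0.255) and without shp63 replicate 1 (0.305). SEMA4D, the ligand of PLXNB1, stood at 12.9 and 14.0 CPM (log2 0.12, 95% interval -0.01 to 0.25, edgeR adjusted p = 0.0901). SEMA6D fell from 22 and 31 reads to 10 and 7 (log2 -1.53, edgeR adjusted p = 0.00115). SEMA6C stood at 1.37 and 1.62 CPM against 1.96 and 1.60 CPM, with overlapping groups and an edgeR adjusted p of 0.188. SEMA5B and SEMA6A had at most 9 reads and were not tested.

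Both neuropilins were called, NRP1 with a large and NRP2 with a small fold change. NRP1, a co-receptor of class 3 semaphorins and of VEGF, was at 49.3 and 52.9 CPM in shControl and 146 and 145 CPM in shp63, with 2733, 2844, 7585 and 7254 reads. It was 2.84-fold higher (log2 1.51, SE 0.040, edgeR adjusted p = 6.55e-19). NRP2 went from 35.0 ± 0.0791 to 37.5 ± 1.28 CPM (SD, n = 2; log2 0.10, edgeR adjusted p = 0.0279). That call was lost with DESeq2, with library totals, and without shControl replicate 1 (adjusted p = 0.178), shControl replicate 2 (0.114) or shp63 replicate 1 (0.262). Of the 6 endothelial markers, CDH5 (56.7 to 187 CPM) and PECAM1 (1.04 to 1.89 CPM) rose beside NRP1, VWF fell (4.66 to 1.30 CPM), and KDR, CLDN5 and TEK were at or near 0; their part in the NRP1 result was not tested.

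All 9 plexin genes were tested, 6 rose and 3 fell, with opposite directions inside class A. That is 66.7% higher and 33.3% lower, beside 36.9% and 37.1% of all tested genes. The sizes were near the background, as 22.2% of the plexins passed the 1.5-fold test, beside 22.7% of all tested genes. PLXNA2 fell from 97.1 and 89.5 CPM to 46.5 and 48.8 CPM (1.96-fold, log2 -0.97, SE 0.046, edgeR adjusted p = 1.69e-14). PLXNA1, the class A plexin with the highest CPM, fell from 168 to 128 CPM (log2 -0.40, edgeR adjusted p = 1.16e-10). PLXNA3 rose from 25.2 and 25.2 CPM to 43.2 and 37.5 CPM (1.60-fold, log2 0.68, SE 0.056, edgeR adjusted p = 6.66e-09), and PLXNA4 rose at a low level from 26 and 24 reads to 62 and 51 (log2 1.27, edgeR adjusted p = 6.59e-05). These are the receptors through which neuropilins pass on the class 3 signal.

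Class B plexins, receptors of class 4 semaphorins, held PLXNB2 and PLXNB1, the plexins with the highest CPM, and also went both ways. PLXNB2 rose from 498 to 702 CPM (log2 0.50, edgeR adjusted p = 6.68e-12) and PLXNB1 from 220.0 to 257 CPM (log2 0.23, edgeR adjusted p = 9.06e-06), while PLXNB3, a receptor of SEMA5A, fell from 18.9 to 13.9 CPM (log2 -0.44, edgeR adjusted p = 6.53e-07). PLXNC1, the receptor of SEMA7A, stood at 0.686 and 1.01 CPM (log2 0.55, edgeR adjusted p = 0.0333), which is low beside its ligand. PLXND1 went from 14.8 to 16.8 CPM (log2 0.18, edgeR adjusted p = 0.0102). With DESeq2 (adjusted p = 0.251 and 0.102) and with library totals (0.0709 and 0.169) neither PLXNC1 nor PLXND1 was called. The PLXNC1 call was also lost without shControl replicate 2 (adjusted p = 0.2) or shp63 replicate 1 (0.188), and the PLXND1 call without shControl replicate 1 (0.0828) or shp63 replicate 1 (0.12). PLXNC1 overlaps CEP83 on the other strand by 1227 bases, and CEP83 fell from 16.3 to 8.66 CPM.

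EPHA1-AS1 was scarce, with 12 and 15 reads in shControl and 4 and 2 in shp63 (log2 -2.03, edgeR adjusted p = 0.00267), and DESeq2 did not call it. It passed the low-count filter through shControl only, the group where it was higher. It is counted among the 15 rows that fell and the 8 lower past 1.5-fold. Without the antisense RNAs, 23 of 44 tested guidance genes rose (52.3%) and 14 fell (31.8%), beside 36.9% and 37.1% of all tested genes. EPHA5-AS1 had no read.

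**Figure D3:**
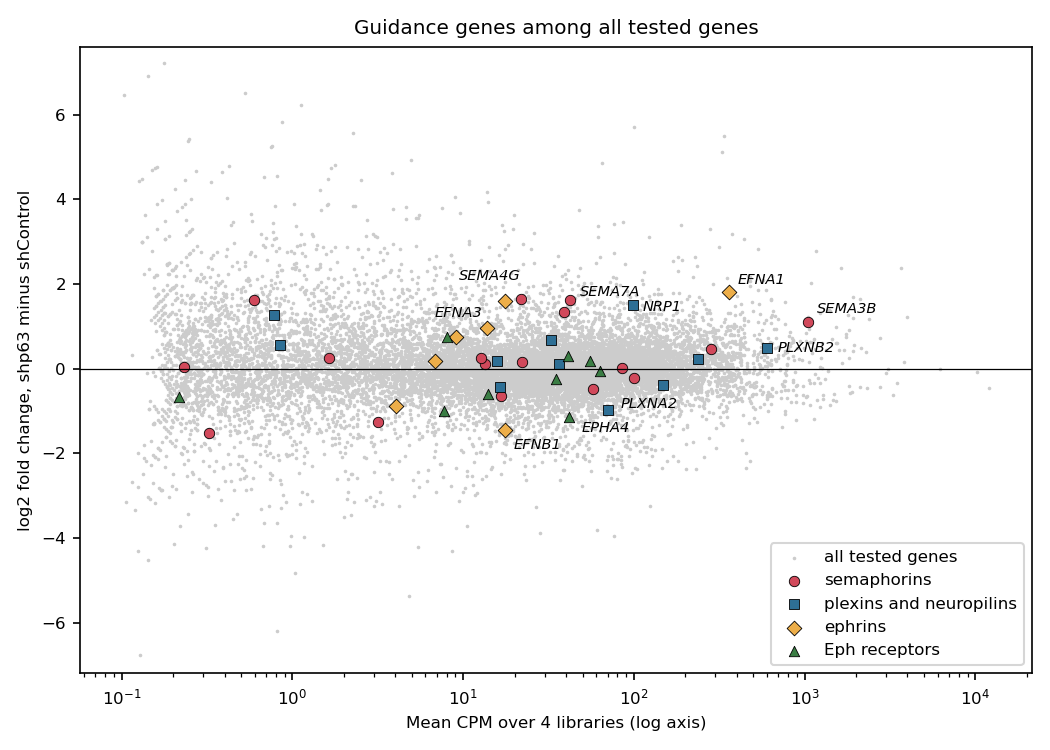
log2 fold change, shp63 minus shControl, against mean CPM over the 4 libraries (log axis) for all 14901 tested genes in grey, with the semaphorins, plexins and neuropilins, ephrins and Eph receptors marked. The antisense RNAs are not marked, and EFNA1, EFNA3, NRP1, SEMA3G, SEMA7A and SEMA4G lie above 1.5 on the log2 scale.

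The genes that make, cut and transmit these signals were called about as often as all tested genes. In a list of 63 effectors (GTPases, their exchange factors, kinases, proteases and receptor partners) 56 were tested, 21 rose, 20 fell and 15 did not pass (median log2 fold change -0.00). That is 37.5% higher and 35.7% lower, beside 36.9% and 37.1% of all tested genes. With library totals in place of TMM factors the split was 17 higher and 28 lower, beside 4658 higher and 6591 lower of all tested genes. RND1, a GTPase that binds plexins, went from 1.02 to 17.0 CPM, 16.7-fold higher (edgeR adjusted p = 4.96e-19). MICAL1, the actin-oxidising enzyme downstream of class A plexins, rose 3.36-fold from 21.7 ± 1.51 to 72.9 ± 3.28 CPM (SD, n = 2; edgeR adjusted p = 4.38e-18). FURIN, the protease that processes class 3 semaphorins, rose 2.40-fold from 123 ± 1.69 to 296 ± 8.24 CPM (edgeR adjusted p = 1.61e-19). ADAM10, which cuts ephrins from the cell surface, rose 1.88-fold from 211 to 396 CPM (edgeR adjusted p = 2.12e-17).

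Among the effectors that fell, VAV3, an exchange factor that acts below Eph receptors, was 3.42-fold lower, at 63.4 ± 5.09 and 18.5 ± 0.362 CPM (edgeR adjusted p = 1.34e-15). VAV2, of the same list, went the other way, from 190 to 311 CPM (1.64-fold higher). MET, the receptor kinase that pairs with class B plexins, fell 1.48-fold from 208 to 141 CPM (edgeR adjusted p = 9.71e-14). SRC fell 1.57-fold from 57.8 to 36.7 CPM (edgeR adjusted p = 1.67e-12) and PTK7, a kinase-inactive receptor, 1.24-fold from 216 to 175 CPM (edgeR adjusted p = 4.6e-09). RAC1, ROCK1, CFL1, GSK3B and PTK2 were among those that did not pass.

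The other guidance systems (netrins, slits and their receptors, and the CXCL12 receptors) also went both ways. Of 33 listed genes 32 were in the table and 19 were tested, 8 rose, 8 fell and 3 did not pass, with a median log2 fold change of -0.06. The shares were 42.1% higher and 42.1% lower, beside 36.9% and 37.1% of all tested genes. The 1.5-fold test was passed by 47.4% of them, beside 22.7% of all tested genes and 45.7% of the guidance rows above. The netrins NTN4 (153.8 to 400.0 CPM, 2.60-fold, edgeR adjusted p = 4.1e-20) and NTN1 (7.10 to 27.1 CPM, 3.82-fold, edgeR adjusted p = 1.53e-17) rose. Their receptors diverged: UNC5C rose from 3.88 to 11.6 CPM (2.99-fold, edgeR adjusted p = 1.89e-13) and NEO1 from 102 to 132 CPM (1.30-fold, edgeR adjusted p = 1.49e-09), while UNC5B fell from 60.3 to 24.0 CPM (2.51-fold, edgeR adjusted p = 2.54e-10). ACKR3, a receptor that takes up CXCL12, fell from 20.3 to 5.21 CPM (3.90-fold, edgeR adjusted p = 4.06e-16). SRGAP3, a GTPase-activating protein that binds Robo receptors, fell from 61.1 to 37.2 CPM (1.64-fold, edgeR adjusted p = 5.05e-13). SRGAP2 fell from 33.1 to 14.9 CPM (2.22-fold, edgeR adjusted p = 1.76e-14), but near-identical copies of it exist in the human genome and could share its reads.

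**Figure D4:**
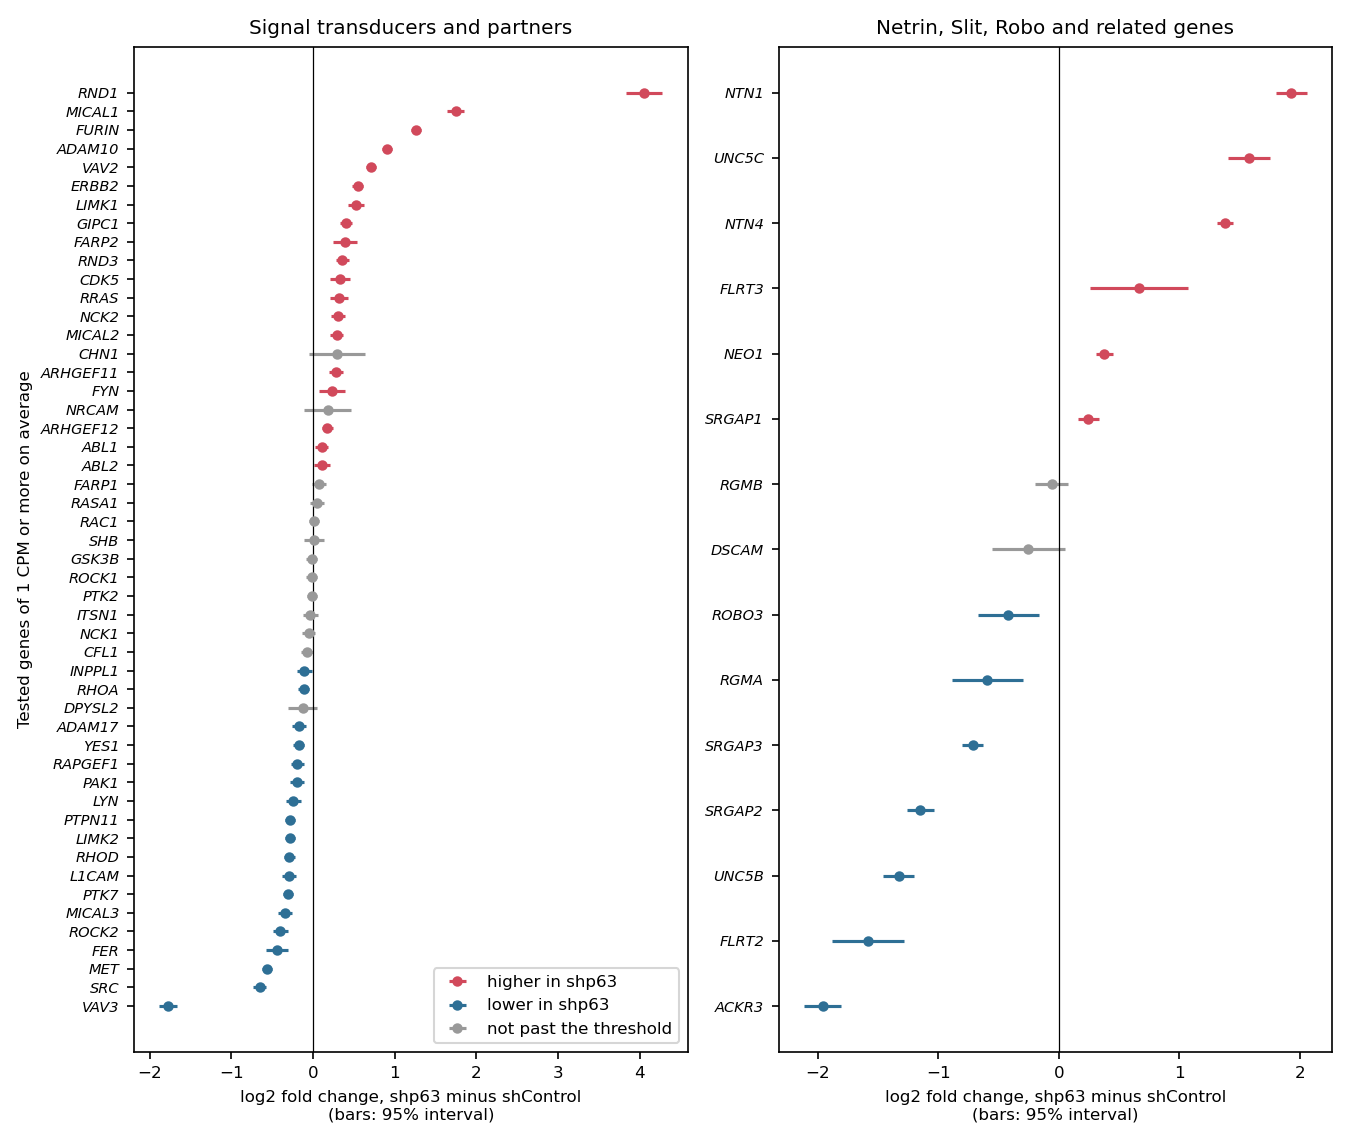
log2 fold change, shp63 minus shControl, with 95% intervals (bars), of the tested genes of at least 1 CPM on average in the effector list (left) and in the list of other guidance genes (right), each sorted by value and coloured by call. RND1 stands alone at 4.06 on the left, while the right panel runs from ACKR3 at -1.96 to NTN1 at 1.93.

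The genes around the neighbouring members were read in the same fit, a step chosen after the values of the members were seen. Within 100 kb of the 3 ephrin-A genes on chromosome 1 (chr1:154936213-155207375), 14 other genes were tested, of which 9 rose, 2 fell and 3 did not pass, with a median log2 fold change of 0.25 and a range from -1.30 to 2.09. Of all tested genes 36.9% rose and 37.1% fell, against which this and the next count can be read. MUC1, a membrane mucin, was the highest at 42.1 ± 4.13 and 179.8 ± 8.80 CPM (SD, n = 2; log2 2.09, edgeR adjusted p = 3.38e-11), and CKS1B, a cell cycle gene, was the lowest at 102 and 41.5 CPM (log2 -1.30, edgeR adjusted p = 1.54e-17). EFNA1 and EFNA3 lay above all of these neighbours but MUC1. Within 100 kb of SEMA3F and SEMA3B (chr3:50092478-50414977), 14 other genes were tested, of which 8 rose, 3 fell and 3 did not pass, with a median of 0.37 and a range from -0.39 to 1.76. The hyaluronidase genes next to SEMA3B rose with it: HYAL1 from 62.8 to 213 CPM (log2 1.76, edgeR adjusted p = 2.04e-21), HYAL3 from 33.2 to 84.0 CPM (log2 1.34, edgeR adjusted p = 3.41e-17) and HYAL2 from 72.7 to 152 CPM (log2 1.07, edgeR adjusted p = 5.29e-17). IFRD2, which lies between SEMA3B and the hyaluronidase genes, fell from 95.9 to 73.1 CPM (log2 -0.39, edgeR adjusted p = 9.78e-09). Both loci held genes of each direction.

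**Figure D5:**
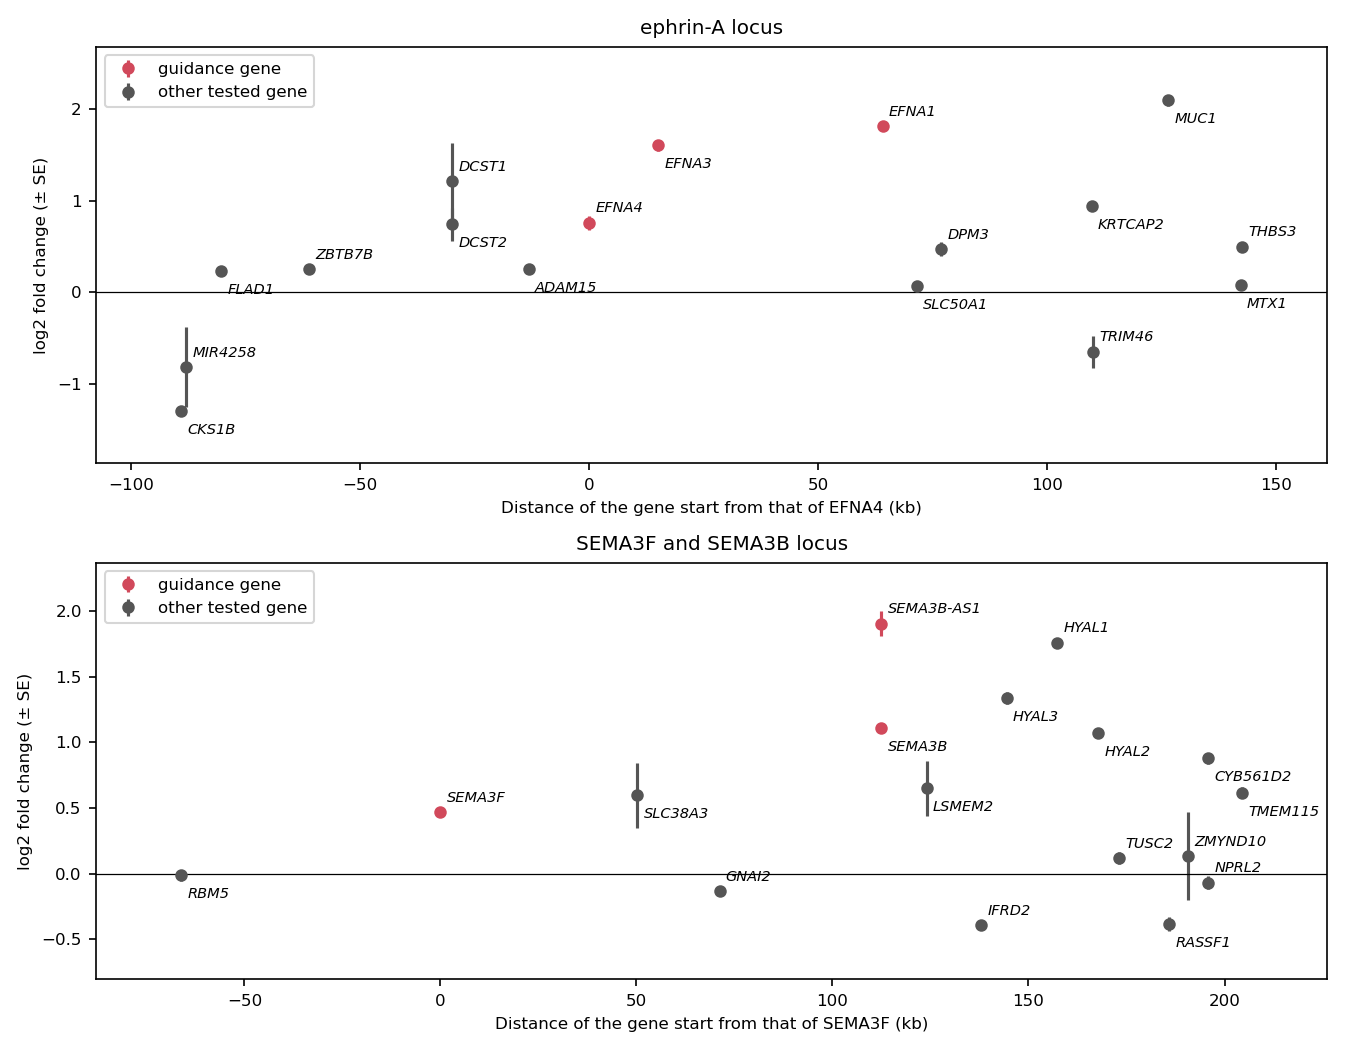
log2 fold change (points, bars are SE) of every tested gene within 100 kb of the ephrin-A genes of chromosome 1 (upper panel) and of SEMA3F and SEMA3B (lower panel), against the distance in kb of the gene start from that of EFNA4 or SEMA3F. Guidance genes are red and all above 0, and both panels hold other genes on each side of 0.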

How the data were processed

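Poly(A) RNA of 4 H226 libraries was measured, 2 per group. The deposited table holds raw read counts for each gene symbol, with no scaling by the authors. Per the submitters' processing notes, reads went through TopHat2 2.0.13 and HTSeq 0.6.1 on GRCh37. Which annotation was counted, and with which strand setting, is not given in the sources used here, which leaves overlapping and antisense genes uncertain. Every column was matched to its sample by name. Library totals ran from 51926832 to 53924761 counts.

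The test was edgeR 4.0.16 (R 4.3.3): filterByExpr (minimum count 10, minimum total 15) kept 14901 of 25369 genes, scaling used TMM, and a robust quasi-likelihood fit had group as its only term. Benjamini-Hochberg adjustment ran over all tested genes, with calls at an adjusted p under 0.05. Replicates were close (biological coefficient of variation 0.0308, 2 residual degrees of freedom), so that small changes pass, and a test against 1.5-fold (glmTreat) is given as well. Standard errors are the log2 fold change divided by the root of the F statistic. The fit was tested on simulated data in which far fewer genes changed than were called here. That simulation therefore does not cover scaling or false calls where most genes move. The libraries of a pair were not the same library deposited again, since their counts differed beyond sampling noise (chi-square per degree of freedom 3.43 and 3.74).

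RPKM used the length of the Ensembl canonical transcript in GENCODE v44lift37, which need not be the authors' annotation. Full values were given for TP63 and for called members of at least 1 CPM on average with a fold change of at least 1.5, and for up to 4 genes per direction of smallest adjusted p and at least 5 CPM in the effector list and the other guidance list. Marker lists covered squamous carcinoma, endothelium, leukocytes, mesothelium, fibroblasts, and neurons and glia. The members and lists were chosen with earlier results of these data known. Alternatives were RLE size factors, library totals, other low-count filters, DESeq2 1.42.0, limma-voom (limma 3.58.1), the 1.5-fold test, the replicate number as a block, and each library left out. Proteins were not analysed here.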

Additional observations from a re-analysis of the deposited data

How the results depend on the processing

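Against a 1.5-fold change 3385 of all tested genes passed, with 13 of the guidance genes higher and 8 lower, 6 and 3 of the effectors, and 4 and 5 of the other guidance genes, since that test asks for more than a difference from 0. In the 13 alternatives no called guidance gene changed sign. The 21 genes with full values kept their side of the threshold in 270 of 273 values, and the exceptions were EPHB3, PLXNA3 and SEMA4A against 1.5-fold. DESeq2 called 20 guidance genes higher and 14 lower, beside 4688 higher and 4685 lower of all genes. It did not call EPHA1-AS1, NRP2, PLXNC1, PLXND1 or SEMA4C. Library totals moved the median of all genes to -0.10 and called 4658 of all genes higher and 6591 lower. They called 20 guidance genes higher and 16 lower, lost NRP2, PLXNC1, PLXND1 and SEMA4C and gained EPHB4. EFNB3 was gained with RLE size factors (adjusted p = 0.0436), with the replicate block of crossed numbers (0.0329) and without shp63 replicate 2 (0.0382), which also gained EFNA2; the cause was not tested.

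With 1 library left out in turn, 10353 to 10548 genes were called, 20 to 26 guidance genes higher and 15 in each case lower. The lone library of such a fit is assumed to vary like the other group. Same-numbered libraries did not deviate together (correlation across genes of -0.11). With 2 libraries a group that value cannot show whether equal numbers share a batch. With the replicate block 10858 genes were called, and 24 guidance genes higher and 15 lower, the same 39. With the numbers crossed, an alternative chosen after seeing the data, 11387 genes were called, 25 guidance genes higher and 15 lower. EPHB1 (8 to 15 reads a library) and SEMA3E (9 to 16) have wide intervals.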
